A study of Mus musculus with 50 samples.

Results

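The genes of the proteasome, with its regulators and assembly factors, were followed in single mouse oocytes. Members were all rows of the count table whose symbol begins with Psma, Psmb, Psmc, Psmd, Psme, Psmf or Psmg followed by a digit, which gave 49 of 16614 genes. They comprised 14 subunits of the constitutive core, 4 alternative core subunits, 9 base and 8 lid subunits, 5 activator genes, the regulator Psmf1 and 7 assembly chaperones. The remaining match, Psmc3ip, is a factor of meiotic recombination and no proteasome subunit; it carries the prefix because its product binds PSMC3. Psmb9 is not analysed here.

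All cells were germinal vesicle (GV) oocytes, that is, arrested in meiotic prophase. They came from floxed females, labelled F/F-, and from females with a conditional knockout (cKO) of Zfp36l2, whose product attaches to AU-rich elements in mRNA tails and speeds their decay. The labels name neither the Cre driver nor the strain. All females were 5 weeks old, received 10 IU of the gonadotrophin PMSG and were killed 46 hours later. Oocytes were collected in 5 μM milrinone, which keeps them arrested, and were freed of granulosa cells and zona pellucida. Floxed mice 1 to 4 gave 5, 7, 7 and 7 oocytes (26 in all) and knockout mice 1 to 4 gave 1, 7, 8 and 8 (24 in all), so knockout mouse 1 is a single cell. Counts were summed per mouse, and the mouse was the replicate. Levels are given in CPM, a gene's count scaled to a common total for every mouse. A gene was called higher or lower at an adjusted p under 0.05 in edgeR's quasi-likelihood test over 15029 genes, and log2 fold changes are knockout over floxed.

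The 26S proteasome degrades proteins tagged with ubiquitin. Its barrel-shaped 20S core is built of stacked alpha and beta rings, and 3 beta subunits carry the proteolytic sites. The 19S particle caps the core: its base holds a ring of ATPases that unfolds the substrate and receptors that bind ubiquitin, and its lid holds the enzyme that removes ubiquitin chains. Other caps, the PA28 and PA200 activators, open the core without ubiquitin, and dedicated chaperones guide the assembly of the rings and the base. In oocytes, proteolysis by the proteasome is known for removing cyclin B and securin during the meiotic divisions.

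ZFP36 proteins bind a heptamer that reads TATTTAT as DNA, so the 3′ untranslated regions were searched for it on the transcribed strand, overlapping matches included. It occurred in 5 of the 49 members (10.2%), against 27.7% of tested genes with an annotated region. The members' regions were short, with a median length of 213 bases against 985.5 bases over all tested genes. The 7 matches are given with flanking bases, 5′ to 3′ in transcript direction, with the heptamer in capitals; they show which members hold the letters that the deleted protein's family binds.
Psma2, chr13:14626454-14626483, plus strand: agttactcgtgTATTTATtgtatatctgtg
Psmb1, first match, chr17:15475676-15475705, minus strand: ttatctggataTATTTATttattttgagat
Psmb1, overlapping match, chr17:15475672-15475701, minus strand: ctggatatattTATTTATtttgagatttac
Psmb1, last match, chr17:15475607-15475636, minus strand: acgtgcatgcaTATTTATgtgaacagggta
Psmc3ip, chr11:101092170-101092199, minus strand: agtatttgtaaTATTTATtgtaatataatt
Psmc6, chr14:45349628-45349657, plus strand: aaaattgagatTATTTATagttaattcttg
Psme3, chr11:101322909-101322938, plus strand: aatgtttctcgTATTTATagtattgtgctt
Coordinates are those of the mm10 build with GENCODE annotation. Of these 5 genes, Psmc3ip was called lower and the other 4 were not called. No match was present in the annotated 3′ untranslated regions of Psmd13 and Psmg2, the 2 members called higher; a match or its lack says nothing about binding.

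Zfp36l2 was low in both genotypes, with 3.27 ± 0.934 CPM across floxed and 2.00 ± 0.806 across knockout mice (SD, n = 4 each), and was not called (log2 fold change -0.78, edgeR adjusted p = 0.208); a count over the whole gene does not check a deletion of part of it. Totals per oocyte were 1746007 to 6120317 in floxed and 4332108 to 6233840 in knockout oocytes, and sums per mouse were 4332108 to 44498770. The 11 oocyte markers, such as Zp3 and Gdf9, summed to 5080 to 6294 CPM in floxed and 5128 to 5730 CPM in knockout mice; 1 of them, the transcription factor Figla, was called higher, from 50.2 ± 8.61 to 83.7 ± 8.14 CPM (SD, n = 4 each; log2 fold change 0.70, edgeR adjusted p = 0.00618). Of 13 cumulus and granulosa cell markers, 11 were in the table, with sums of 160 to 228 and 163 to 291 CPM and no call. Mean CPM was lower in knockout mice for Cyp19a1 (82.8 and 78.8), Nr5a2 (49.9 and 44.1) and Fshr (5.13 and 4.00). It was higher for the others, such as Inha (18.8 ± 6.17 and 35.6 ± 15.7) and Kitl (21.3 ± 4.52 and 40.0 ± 18.2; SD, n = 4 each). The 4 immune markers in the table summed to 16.6 to 27.9 and 14.3 to 21.4 CPM. The 4 theca and endothelial markers in the table summed to 96.3 to 183 and 22.9 to 41.9 CPM, and 2 of them, Pecam1 and Cyp11a1, were called lower. Most of this sum was Pecam1 alone, at 91.1 to 175 CPM in floxed and 18.7 to 35.7 CPM in knockout mice. Star (2.65 and 4.37 CPM, not called) and Cyp17a1 (0.113 and 0.326 CPM, not tested) had higher means in knockout mice. The part of these markers in the results was not tested.

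Proteasome genes were abundant in these oocytes. Without Psmc3ip they took 0.673% of all counts in floxed and 0.669% in knockout mice, and 44 of the 49 members were counted in every oocyte. The constitutive subunits of the 26S proteasome spanned 4.35 to 236 CPM per kb of transcript in floxed mice, with a median of 104. The beta subunit Psmb6 was highest at 236 CPM per kb, followed by the ubiquitin receptor Psmd4 at 220, the alpha subunit Psma7 at 208 and the beta subunit Psmb2 at 207. The base had a median of 126 CPM per kb, the core 112, the lid 75.3 and the chaperones 65.2. Psma3, at 20.04, was the lowest constitutive core subunit on this scale. The alternative core subunits lay between 0.122 and 1.87 CPM per kb. Values per kb divide by the mean length of the matched transcripts, so a long annotated end that the oocyte does not use lowers them.

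**Figure D1:**
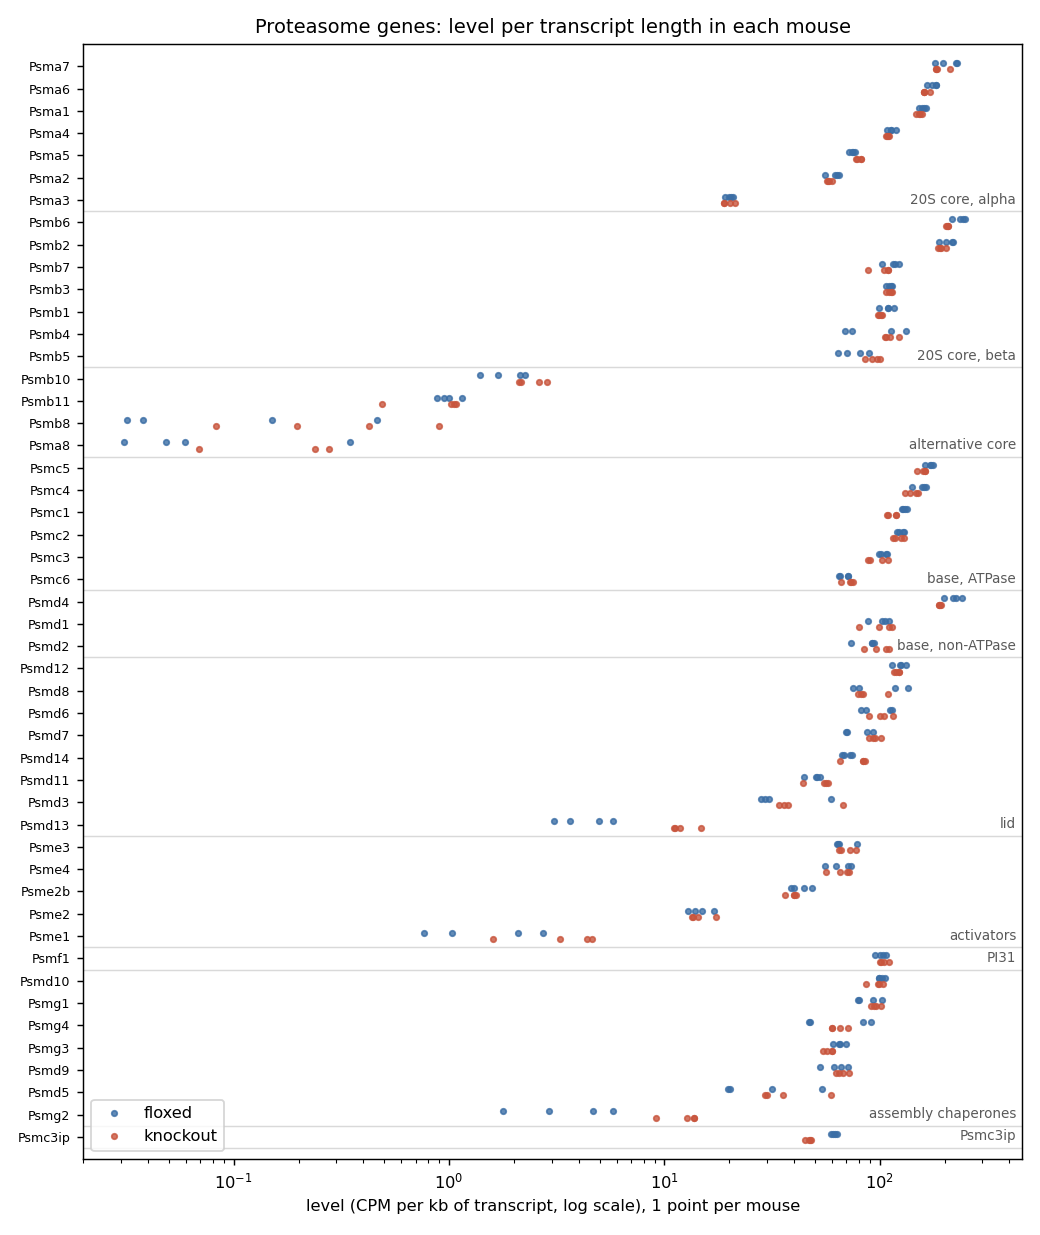
Level of each member in CPM per kb of transcript (log axis), grouped by role, with 1 point per mouse for 4 floxed and 4 knockout mice; a mouse with no count (Psma8, knockout mouse 1) has no point. Most subunits lie near 100 in both genotypes, while Psmd13, Psmg2, Psme1 and the alternative core subunits lie far to the left.

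Of the 48 members tested, 2 were called higher in knockout oocytes (4.17%), against 14.4% of all tested genes, and 4 were called lower (8.33%), against 13.2% of all tested genes. In either direction 6 members were called (12.5%), against 27.6% of all tested genes. The higher ones were the lid subunit Psmd13 and the core chaperone Psmg2. The lower ones were the beta subunit Psmb6, the ATPase Psmc1, the ubiquitin receptor Psmd4 and Psmc3ip. The values of the knockout mice lay wholly above or below those of the floxed mice in 8 members (16.7%), against 31% of all tested genes. Besides the called genes these were Psma5, higher, and the chaperone Psmg3, lower. Of the 42 members not called, 39 had a log2 fold change between -0.3 and 0.3. The median over the tested members was -0.05, and over all tested genes -0.01.

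**Figure D2:**
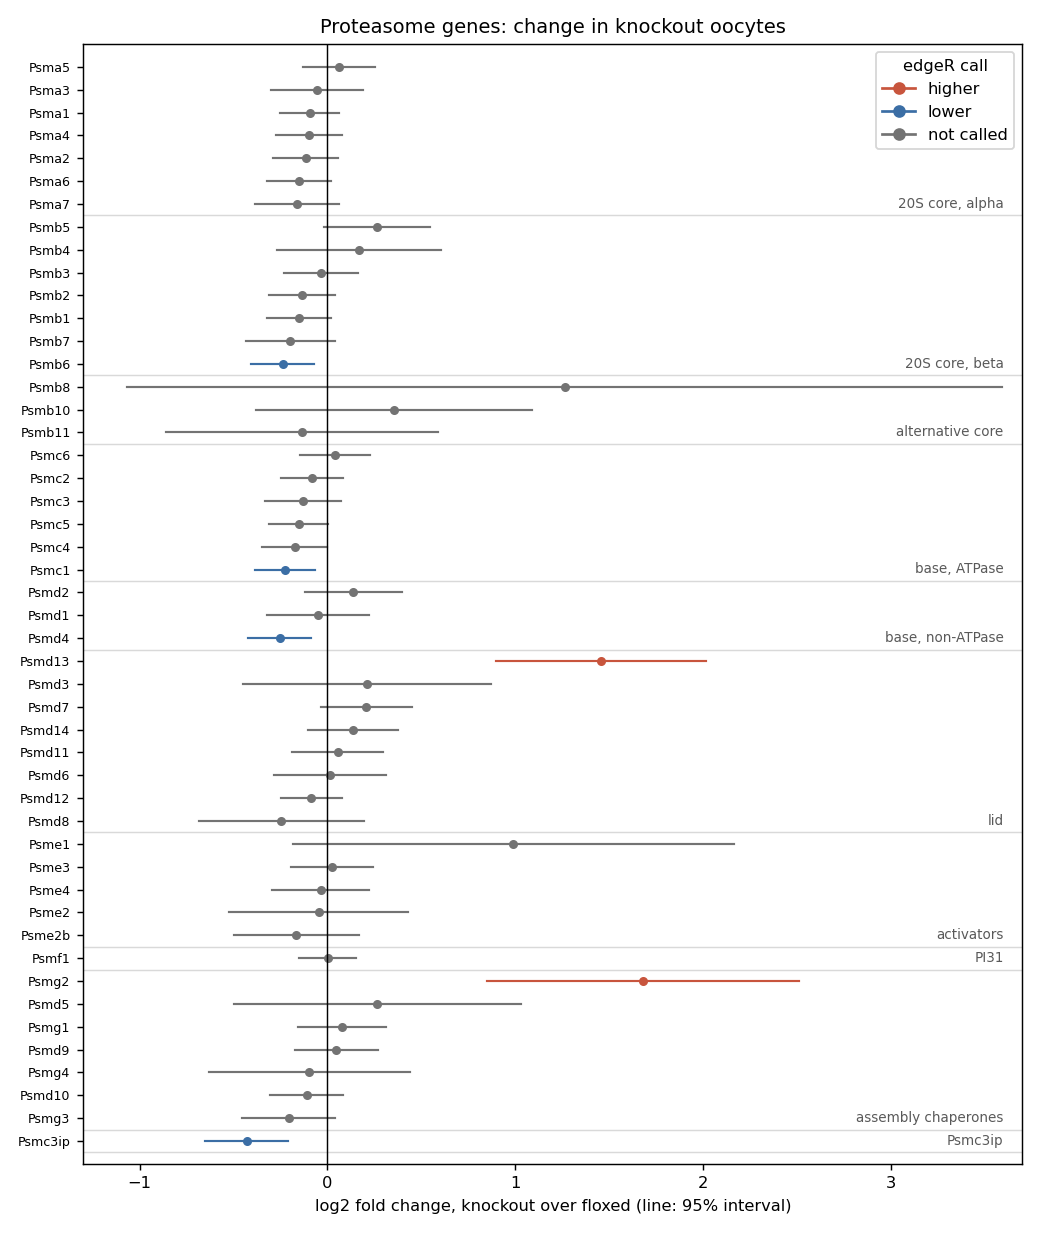
Log2 fold change, knockout over floxed, of the 48 tested members by role, with 95% intervals from edgeR over 4 mice per genotype. Psmd13 at 1.46 and Psmg2 at 1.68 are the members whose intervals lie wholly above 0, and the 4 genes called lower lie between -0.43 and -0.23.

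PSMD13, also called Rpn9, is a structural subunit of the lid. The gene (chromosome 7, 140881968 to 140898643, plus strand, 13 exons in the matched transcript) had 9.87, 6.08, 11.4 and 7.22 CPM in floxed mice 1 to 4 and 23.5, 22.0, 29.6 and 22.2 CPM in knockout mice 1 to 4. Each knockout mouse was above each floxed mouse. The rise was 2.74-fold (log2 fold change 1.46, SE 0.249, edgeR adjusted p = 0.00305). Single floxed oocytes held 2.89 to 20.2 CPM with a median of 6.98, and single knockout oocytes 6.33 to 65.2 CPM with a median of 23.9. The knockout range was thus wide, and 14 of its 24 oocytes were above the highest floxed oocyte. The gene was called higher in all 15 alternative analyses, with log2 fold changes from 1.31 to 1.62. Per kb, Psmd13 was the lowest lid subunit in both genotypes: 4.35 CPM in floxed mice against 37.0 for the next, Psmd3, and 12.2 against 43.8 in knockout mice. It shares 342 of its 1989 exon bases with Sirt3 on the opposite strand, and the library kit does not mark strand. Sirt3 had 21.3 ± 2.33 and 24.8 ± 7.03 CPM (SD, n = 4 each) and was not called.

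PSMG2, or PAC2, pairs with PSMG1 to hold the growing alpha ring. Psmg2 (chromosome 18, 67641599 to 67654162, plus strand, 7 exons) had 6.11, 1.88, 4.96 and 3.10 CPM in floxed mice and 9.70, 14.6, 13.5 and 14.5 CPM in knockout mice. The groups did not overlap, and the single cell of knockout mouse 1 was the lowest knockout value. The rise was 3.20-fold (log2 fold change 1.68, SE 0.370, edgeR adjusted p = 0.00974). Single oocytes ranged from 0 to 9.94 CPM (median 3.95) in floxed and from 2.69 to 24.998 CPM (median 13.7) in knockout mice. Of the 24 knockout oocytes, 19 were above the highest floxed oocyte, and the gene was counted in 24 of 26 floxed oocytes and all 24 knockout oocytes. The call held in all 15 alternatives, with log2 fold changes from 1.44 to 2.01. Its partner Psmg1 had 107, 97.4, 82.8 and 83.6 CPM in floxed and 95.1, 101, 98.6 and 106 CPM in knockout mice and was not called (log2 fold change 0.08, edgeR adjusted p = 0.632). Per kb, Psmg1 stood at 88.7 and 95.8 CPM, and Psmg2 at 3.79 and 12.3, so the chaperone that was called higher was the scarcer of the pair in both genotypes.

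**Figure D3:**
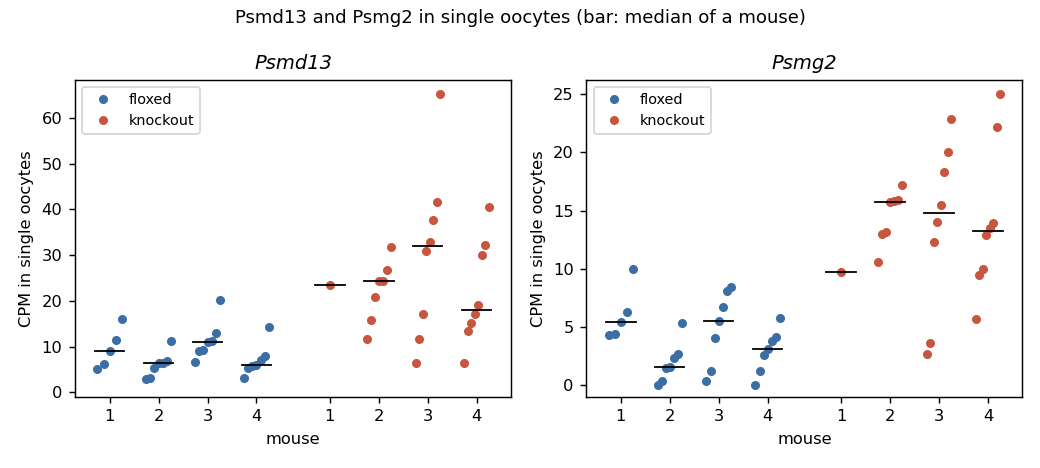
CPM of Psmd13 (left) and Psmg2 (right) in each of the 26 floxed and 24 knockout oocytes, arranged by mouse, with the median of each mouse as a bar. Of the knockout oocytes, 14 for Psmd13 and 19 for Psmg2 lie above the highest floxed oocyte.

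The 14 constitutive core subunits shifted little. Their summed level was 2056, 2076, 1826 and 1975 CPM in floxed mice and 1921, 1905, 1902 and 1900 CPM in knockout mice, a ratio of 0.962. The floxed mice spread over more than the difference between the groups, and the knockout mice were close together. The log2 fold change was above 0 in 3 of the 14, with a median of -0.11.

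Among the 7 alpha subunits, which form the outer rings and the gate of the core, none was called, and log2 fold changes ran from -0.16 for Psma7 to 0.06 for Psma5. Psma7 had 206, 210, 164 and 181 CPM in floxed mice and 194, 169, 168 and 167 in knockout mice. The groups overlapped, and floxed mice 1 and 2 were the highest of the 8. Psma5 had 89.5, 92.6, 92.5 and 95.1 CPM against 96.5, 96.7, 102 and 102 CPM. Its groups did not overlap, but the gene was not called (edgeR adjusted p = 0.636), and its sign changed in 1 of the 15 alternatives. Psma6 was not called (log2 fold change -0.15, edgeR adjusted p = 0.164) but was called lower without mouse 1 of both genotypes (-0.23, edgeR adjusted p = 0.0397).

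Of the 3 catalytic beta subunits, Psmb6 was called lower and Psmb5 and Psmb7 were not called. Psmb6 carries the caspase-like site (chromosome 11, 70525367 to 70527858, plus strand, 6 exons). It had 194, 199, 172 and 189 CPM in floxed mice and 165, 164, 165 and 162 CPM in knockout mice. Each knockout mouse was below each floxed mouse, by a small margin for floxed mouse 3. The fall was 1.18-fold (log2 fold change -0.24, SE 0.0745, edgeR adjusted p = 0.0408), and 1 of 24 knockout oocytes was below the lowest floxed oocyte. It was called in 8 of 15 alternatives and stood at -0.08 (edgeR adjusted p = 0.524) in oocytes of like depth, those with 4200000 to 5600000 counts. Psmb7, with the trypsin-like site, had 119, 137, 133 and 143 CPM against 102, 122, 127 and 127 CPM. The groups overlapped, and it was not called (log2 fold change -0.20, edgeR adjusted p = 0.194) except without mouse 1 of both genotypes (-0.23, edgeR adjusted p = 0.0353). Psmb7 shares 405 of 1160 exon bases with Nek6 on the opposite strand, and Nek6 rose from 2.95 ± 0.446 to 18.03 ± 3.51 CPM (SD, n = 4 each; log2 fold change 2.57, edgeR adjusted p = 0.00033); how many of these reads fell into Psmb7 was not tested. Psmb5, with the chymotrypsin-like site, had 79.9, 73.2, 57.5 and 63.4 CPM in floxed and 82.6, 87.7, 89.8 and 76.9 CPM in knockout mice. Only the lowest knockout mouse fell within the floxed range, and the gene was not called (log2 fold change 0.26, edgeR adjusted p = 0.145). The noncatalytic Psmb1, Psmb2, Psmb3 and Psmb4 had log2 fold changes of -0.15, -0.13, -0.03 and 0.17, and none was called.

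The 9 base subunits had a summed level of 1968, 2120, 2050 and 2136 CPM in floxed mice and 1807, 1939, 2091 and 2121 CPM in knockout mice (ratio 0.962). The groups overlapped, and mouse 1 was the lowest of each. The log2 fold change was above 0 in 2 of the 9, with a median of -0.13.

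Psmc1 encodes the ATPase Rpt2 (chromosome 12, 100110154 to 100123405, plus strand, 11 exons). It had 202, 204, 208 and 212 CPM in floxed mice and 173, 175, 189 and 190 CPM in knockout mice. No knockout mouse reached the floxed range, and the fall was 1.17-fold (log2 fold change -0.23, SE 0.0707, edgeR adjusted p = 0.0397). Of the 24 knockout oocytes, 10 were below the lowest floxed oocyte. The call held in 9 of 15 alternatives and was lost in oocytes of like depth (-0.14, edgeR adjusted p = 0.272). Among the other 5 ATPases, log2 fold changes ran from -0.17 for Psmc4 to 0.04 for Psmc6. Psmc6 had 144, 146, 160 and 159 CPM against 148, 162, 165 and 168 CPM, overlapping values, and was not called.

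PSMD4, or Rpn10, is a ubiquitin receptor of the base. Psmd4 (chromosome 3, 95032694 to 95042614, minus strand, 10 exons) had 294, 313, 258 and 285 CPM in floxed mice and 252, 245, 245 and 247 CPM in knockout mice. The groups did not overlap, although floxed mouse 3 lay close to the knockout values. The fall was 1.19-fold (log2 fold change -0.25, SE 0.0750, edgeR adjusted p = 0.0320), and 6 of 24 knockout oocytes were below the lowest floxed oocyte. The call held in 8 of 15 alternatives and was lost in oocytes of like depth (-0.10, edgeR adjusted p = 0.344). The base scaffolds Psmd1 and Psmd2 were not called. Psmd2 had the highest log2 fold change of the base, 0.14, from 219, 275, 282 and 274 CPM in floxed mice and 252, 285, 319 and 331 CPM in knockout mice. These groups overlapped through knockout mouse 1.

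**Figure D4:**
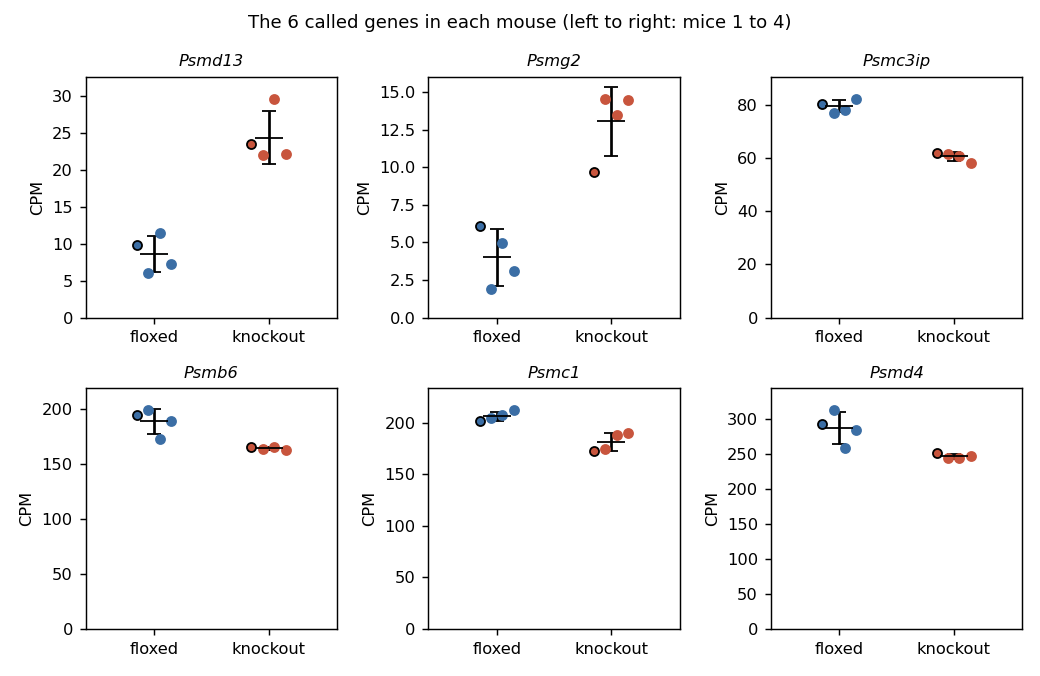
CPM of the 6 called genes in each mouse (points, mice 1 to 4 from left to right, mouse 1 outlined), with mean and SD of 4 mice per genotype; all axes start at 0. Psmd13 and Psmg2 rise 2.74-fold and 3.20-fold, while Psmb6, Psmc1 and Psmd4 fall by 1.17-fold to 1.19-fold.

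The 8 lid subunits summed to 1118, 1044, 887 and 923 CPM in floxed mice and 1084, 1027, 1025 and 1050 CPM in knockout mice (ratio 1.05). The groups overlapped. The log2 fold change was above 0 in 6 of the 8, with a median of 0.10. Psmd13 was the only one of the 8 called by edgeR. Psmd14, the deubiquitinase Rpn11, had 105, 103, 113 and 114 CPM against 101, 129, 129 and 132 CPM. The last 3 knockout mice were above the floxed mice and the first was below them, and the gene was not called (log2 fold change 0.14, edgeR adjusted p = 0.372). Psmd8 had the lowest log2 fold change, -0.24, from 205, 179, 113 and 121 CPM in floxed and 166, 126, 119 and 124 CPM in knockout mice. Floxed mice 1 and 2 were apart from floxed mice 3 and 4, and the groups overlapped. Psmd3 had 128, 65.9, 63.2 and 60.7 CPM against 146, 76.9, 80.8 and 73.1 CPM, so mouse 1 was about as far from its own group in both genotypes. Mouse 1 was the highest of its 4 in both genotypes for 6 members (Psmb4, Psmd3, Psmd5, Psmd6, Psmd8 and Psme3) and the lowest in both for 11.

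The activators had summed levels of 614, 623, 700.2 and 692 CPM in floxed mice and 622, 709, 682 and 648 CPM in knockout mice (ratio 1.01), and none of the 5 genes was called. Psme4, encoding PA200, was the member with the highest CPM of all 49: 361, 408, 476 and 463 CPM in floxed and 365, 466, 458 and 423 CPM in knockout mice. Psme3, encoding the nuclear PA28 gamma, had 208, 169, 172 and 170 CPM against 207, 195, 172 and 176 CPM. For both genes the groups overlapped almost fully, with log2 fold changes of -0.04 and 0.03. Per kb, Psme3 and Psme4 stood at 67.4 and 65.8 CPM in floxed mice.

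PA28 alpha and beta form the activator that interferon induces in immune cells. Psme1, for the alpha chain, was low at 0.851, 1.14, 2.32 and 3.04 CPM in floxed mice and 4.85, 1.78, 5.10 and 3.65 CPM in knockout mice. The groups overlapped through knockout mouse 2, and the gene was not called (log2 fold change 0.99, 95% interval -0.18 to 2.16, edgeR adjusted p = 0.189). Psme2, for the beta chain, had 11.3, 12.2, 13.1 and 14.9 CPM against 15.2, 12.6, 11.96 and 11.8 CPM. Psme2b had 32.3, 33.5, 37.3 and 40.7 CPM against 30.2, 33.6, 34.3 and 33.6 CPM. The coding sequences of Psme2 and Psme2b are identical at 715 of 720 bases (99.3%), so the split of reads between them is uncertain. Summed, they gave 48.8 ± 5.36 CPM in the floxed and 45.8 ± 0.439 in the knockout group (SD, n = 4 each), and the groups overlapped. Per kb in floxed mice, Psme1 at 1.65 CPM was far below Psme2 at 14.7 and Psme2b at 42.9.

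Psmf1 encodes PI31, which binds the core and inhibits it in purified form. It had 395, 408, 362 and 381 CPM in floxed and 422, 382, 397 and 388 CPM in knockout mice. Its log2 fold change was 0.00 with a 95% interval of -0.15 to 0.15.

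The alternative core subunits replace constitutive ones in immune cells (Psmb8 and Psmb10), thymus (Psmb11) and testis (Psma8). All 4 were low. Psmb8 had 0.751, 0.245, 0.0522 and 0.0620 CPM in floxed mice and 0.693, 0.321, 0.135 and 1.46 CPM in knockout mice, and had a count in 8 of 26 and 15 of 24 oocytes. The groups overlapped, and its 95% interval of log2 fold change, -1.07 to 3.59, was the widest of the members. Psmb10 had 2.80, 2.20, 2.95 and 1.83 CPM against 2.77, 2.83, 3.73 and 3.43 CPM. Psmb11 had 4.86, 4.25, 4.02 and 3.75 CPM against 2.08, 4.56, 4.34 and 4.47 CPM. Neither was called. Psma8 had 0.100, 0.0816, 0.0522 and 0.589 CPM in floxed and 0, 0.117, 0.405 and 0.470 CPM in knockout mice; with 25 and 42 counts in all, it was not tested.

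Shares against the constitutive subunit were taken on counts per kb of transcript. Psmb10 made up 2.04%, 1.41%, 1.92% and 1.12% of Psmb10 plus Psmb7 in floxed mice and 2.35%, 2.02%, 2.54% and 2.34% in knockout mice. Only the highest floxed value lay above the lowest knockout value. The means were 1.62 ± 0.431% and 2.31 ± 0.216% (SD, n = 4 each; exact two-sided permutation p = 0.0571, adjusted over 3 pairs p = 0.171). Floxed mouse 1 held the overlapping value. Without it the difference was 0.832 percentage points (unadjusted exact permutation p = 0.0286), the smallest p possible with 3 against 4 mice. Leaving out any of the other 7 mice gave an exact permutation p of 0.0571 to 0.143. Without mouse 1 of both genotypes the groups did not overlap, and the exact permutation p was 0.1, the smallest possible with 3 against 3 mice. That p therefore cannot be set against the p of the full set. Psmb8 made up 0.516%, 0.185%, 0.0501% and 0.0540% of Psmb8 plus Psmb5 in floxed and 0.461%, 0.202%, 0.0828% and 1.04% in knockout mice (exact permutation p = 0.4, adjusted p = 0.6). Psma8 made up 0.0601 ± 0.0772% of Psma8 plus Psma7 in floxed and 0.0798 ± 0.0728% in knockout mice (exact permutation p = 0.914, adjusted p = 0.914). With 70 arrangements of 4 against 4 mice the smallest possible p is 0.0286. All 3 shares are per length, and none was taken in oocytes of like depth.

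The 7 assembly chaperones summed to 783, 646, 538 and 568 CPM in floxed mice and 732, 665, 650.2 and 659 CPM in knockout mice (ratio 1.07), with overlapping groups. Apart from Psmg2, none was called. Psmg3, which pairs with Psmg4 beneath the alpha ring, had 61.7, 53.5, 57.1 and 57.9 CPM against 48.2, 50.3, 53.0 and 53.3 CPM. Its groups did not overlap, but edgeR did not call it (log2 fold change -0.21, adjusted p = 0.192), whereas DESeq2 did (-0.21, adjusted p = 0.0436). Psmg4 had 46.7, 42.8, 24.2 and 24.4 CPM against 33.7, 30.8, 30.9 and 36.8 CPM, with the knockout values inside the floxed range. Of the base chaperones, Psmd9 (p27) and Psmd10 (gankyrin) had log2 fold changes of 0.05 and -0.11. Psmd5 had 236, 139, 87.2 and 89.1 CPM in floxed mice and 261, 156, 129 and 132 CPM in knockout mice. Mouse 1 was the highest in both genotypes, and the gene was not called (log2 fold change 0.27, edgeR adjusted p = 0.601). With the mouse number as a block, Psmd5 was called higher (log2 fold change 0.32, edgeR adjusted p = 0.0213). The labels do not say whether equal numbers mark a shared litter or day.

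Psmc3ip, also called Hop2, acts in the pairing and exchange of homologous chromosomes. It lies on chromosome 11 (101091823 to 101095436, minus strand, 8 exons) and had 80.3, 77.1, 78.2 and 82.2 CPM in floxed mice and 61.9, 61.4, 60.8 and 58.2 CPM in knockout mice. Both groups were tight and well apart. The fall was 1.35-fold (log2 fold change -0.43, SE 0.0983, edgeR adjusted p = 0.0113), and 17 of 24 knockout oocytes were below the lowest floxed oocyte. It was called in 14 of 15 alternatives, all but the oocytes of like depth (-0.31, edgeR adjusted p = 0.0867). It shares 385 of 1291 exon bases with Mlx on the opposite strand, which was not called.

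Oocyte depth differed between the groups. Mean totals per oocyte were 3993564, 3499386, 5477289 and 4608740 counts in floxed mice and 4332108, 4889288, 5562346 and 5313598 in knockout mice. Across the 26 floxed oocytes, abundant genes gained counts more slowly than the total. The slope of log2(count + 1) on log2 total had a median of 0.52 over tested genes with a mean of at least 0.8 counts per base. For genes under 0.05 the median slope was 1.09. Knockout oocytes were not used for this slope. Proteasome genes were dense on this measure, with 26 of 49 (53.1%) at 0.4 counts per base or more, against 8.47% of tested genes with a known length. The median log2 fold change of all tested genes was 0.14, 0.01, -0.05, -0.12 and -0.15 from the least to the most dense of 5 classes. That of the members was 1.13, 0.08, -0.01, -0.09 and -0.16, from only 6, 4, 12, 21 and 5 tested members. Psmb6 and Psmd4 were in the most dense class, Psmc1 in the class before it and Psmc3ip in the middle class. Psmd13 and Psmg2 were in the least dense class.

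**Figure D5:**
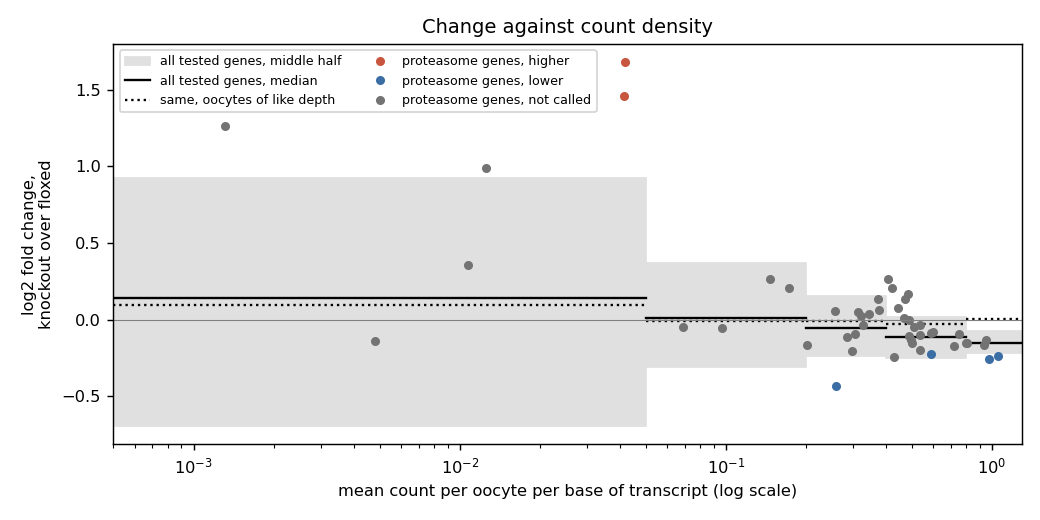
Log2 fold change of the 48 tested members (points) against mean counts per oocyte per base of transcript (log axis), over the median and middle quartiles of all tested genes in 5 density classes. The solid median line falls from 0.14 to -0.15 with density, and the dotted line, from oocytes of like depth, ends at 0.00.

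The fit was therefore repeated on oocytes with 4200000 to 5600000 counts, a range chosen after seeing the data. This kept 15 floxed oocytes (3, 2, 4 and 6 per mouse, median total 5038801) and 16 knockout oocytes (1, 7, 4 and 4, median total 4886960). Psmd13 and Psmg2 kept their calls, with log2 fold changes of 1.44 (edgeR adjusted p = 0.00859) and 1.77 (edgeR adjusted p = 0.0245). None of the 4 lower calls held: the log2 fold change moved from -0.24 to -0.08 for Psmb6, from -0.23 to -0.14 for Psmc1, from -0.25 to -0.10 for Psmd4 and from -0.43 to -0.31 for Psmc3ip. Psmb5 was called higher there (log2 fold change 0.42, edgeR adjusted p = 0.0290). The median log2 fold change of the core became 0.02, with 10 of 14 subunits above 0, that of the base -0.02 and that of the lid 0.15. In the most dense class the median of all tested genes became 0.00. This fit also holds fewer oocytes, and the share of each change that comes from depth was not tested. The shares of the alternative core subunits were not repeated in these oocytes. Across floxed oocytes the slope on depth was 2.19 for Psmb10 and 0.86 for Psmb7. It was -0.64 for Psmb8 and 0.53 for Psmb5, and 0.48 for Psma8 and 0.38 for Psma7. The part of depth in the shares was not tested.

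The 3 small lower calls were also lost in some fits that left out 1 mouse. Psmb6, Psmc1 and Psmd4 each lost the call without floxed mouse 2, without floxed mouse 4 and without knockout mouse 2, with log2 fold changes from -0.30 to -0.21. Without knockout mouse 2 the changes were larger than in the main fit, at -0.29, -0.26 and -0.30, although the calls were lost. The lid's median was -0.01 without knockout mouse 1, and the chaperones' median was below 0 in 4 fits, those without floxed mouse 3, knockout mouse 1, knockout mouse 3 and knockout mouse 4. The median of the base was below 0 in all 15 alternatives. That of the core was below 0 in all but the oocytes of like depth, where it was 0.02.

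Genes that work with the proteasome were taken from a list of 40 names, of which 34 were in the table and tested; 5 were called higher and 1 lower (14.7% and 2.94%), beside the 14.4% and 13.2% of all tested genes, and the median log2 fold change was -0.02. NFE2L1 is the transcription factor that drives proteasome genes when proteasome activity falls. Nfe2l1 had 138, 159, 167 and 158 CPM in floxed mice and 151, 164, 175 and 138 CPM in knockout mice, overlapping values (log2 fold change -0.02, edgeR adjusted p = 0.886). Nfe2l2, for the related factor NRF2, rose from 62.0 ± 12.4 to 98.4 ± 8.67 CPM (SD, n = 4 each; log2 fold change 0.63, edgeR adjusted p = 0.0166). Akirin1 rose from 5.42 ± 4.29 to 29.3 ± 17.8 CPM (log2 fold change 2.41, edgeR adjusted p = 0.0154), while Akirin2, whose product carries proteasomes into the nucleus, had 194 ± 50.8 and 195 ± 61.6 CPM and was not called.

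Cofactors of the assembled particle were mostly not called. The core maturation factor Pomp had 99.2 ± 3.84 and 94.5 ± 4.60 CPM, the ubiquitin receptor Adrm1 88.6 ± 49.5 and 96.4 ± 32.0, and the deubiquitinases Usp14 and Uchl5 162 ± 13.5 and 172 ± 18.01, and 65.8 ± 5.69 and 68.5 ± 4.09 CPM (SD, n = 4 each). The ubiquitin ligase Ube3c, which extends chains on stalled substrates, rose from 68.6 ± 17.6 to 110 ± 5.97 CPM (log2 fold change 0.65, edgeR adjusted p = 0.0207). Among delivery factors, Ufd1l rose from 55.4 ± 9.69 to 83.4 ± 8.39 CPM (log2 fold change 0.55, edgeR adjusted p = 0.0247), and so did its partner, the unfolding ATPase Vcp, from 95.7 ± 12.4 to 125 ± 9.88 CPM (log2 fold change 0.35, edgeR adjusted p = 0.0496). The shuttle factor Ubqln2 fell from 39.5 ± 6.39 to 19.6 ± 4.44 CPM (log2 fold change -1.05, edgeR adjusted p = 0.00687). Nfe2l2, Akirin1 and Ubqln2 kept their calls in all 15 alternatives, Ube3c in 12, Ufd1l in 11 and Vcp in 4. In all 6 called genes the mice of the genotypes did not overlap, against 31% of all tested genes without overlap. The calls came from the same mice, so this is no separate support for them.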

How the data were processed

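Per the labels' protocols, single-oocyte RNA (Trizol) went into a SMARTer Ultra Low Input library, a kit that amplifies whole cDNA without molecular identifiers or strand marking. Intervals cover counting error and the spread between mice, and amplification noise was not measured apart from these. The authors deposited whole-number counts per gene in 1 table for all 50 oocytes, not normalized. STAR and the mm10 build are named in the submitters' processing notes; the counting tool and its settings were not given in the sources used here. Of counts from 1 to 20, 61.5% were even.

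Counts were summed per mouse and tested with edgeR 4.0.16 in R 4.3.3 (TMM, filterByExpr with a minimum count of 10, robust quasi-likelihood fit, Benjamini-Hochberg adjustment over 15029 genes). The standard error is the log2 fold change over the square root of F. Within mice, 150 oocyte pairs had a chi-square per degree of freedom of 5.39 to 28.2, so none was taken as a copy. The labels name no litter or batch. Shares were compared by exact permutation of mice. Alternatives were DESeq2 1.42.0, RLE size factors, no low-count filter, the mouse number as a block, leaving out each mouse or mouse 1 of both genotypes, limma 3.58.1 on per-mouse means of log2(CPM + 1), and, added later, oocytes of like depth. Each test was checked on simulated counts. Rows were matched to GENCODE annotation of mm10 by RefSeq accession (16350) or symbol (186), and 78 were not matched; all 49 members matched. The members and lists were chosen with earlier results of these data known. Full values are given for called members, the extremes of each subcomplex, the activators and the alternative core subunits; other members were named after their values were seen.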

Additional observations from a re-analysis of the deposited data

Results flagged for a closer look

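In groups of 4 mice, a value was marked when its gap to the nearest of the others, over the group's range, was above Dixon's 95% critical value; 11 of 98 groups were marked, in 10 genes, and chance marks about 1 in 20. The single oocyte of knockout mouse 1 stood apart from the other 3 knockout mice in 7 of them. It was high for Psma6 at 177.7 CPM, Psma7 at 194 CPM, Psmd3 at 146 CPM and Psmd8 at 166 CPM. It was low for Psmb11 at 2.08 CPM, Psmd14 at 101 CPM and Psme2b at 30.2 CPM. Floxed mouse 1 stood apart in 3: it was high for Psmd3 at 128 CPM and Psme3 at 208 CPM and low for Psmd2 at 219 CPM. Floxed mouse 4 was high for Psma8 at 0.589 CPM, which rests on 19 counts. Psma8 was not tested, and the other 9 genes were not called.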

How the results depend on the processing

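The 2 higher calls, Psmd13 and Psmg2, held in all 15 alternatives; the 4 lower calls did not. The number of members called lower was 1 with limma, 0 in oocytes of like depth, 5 with DESeq2 and 6 without mouse 1 of both genotypes, and ran from 1 to 4 when each mouse was left out in turn. Over all genes, leaving out each mouse gave 1359 to 2538 higher and 1219 to 2822 lower, and leaving out mouse 1 of both genotypes gave 3549 lower. Of the pathway list, leaving out each mouse gave 2 to 4 higher and 1 to 2 lower, and leaving out mouse 1 of both genotypes gave 3 lower. No called member changed sign, but 25 of the 42 uncalled ones did in at least 1 alternative. Mice that share a number did not all deviate together (correlations 0.317, -0.003, 0.248 and 0.181). Floxed mice 1 and 3 and knockout mice 1, 3 and 4, but not the other 3 mice, correlated best with their own number. The labels do not say whether equal numbers mark a shared litter or day, and this was not tested. With the replicate block 3 members were higher and 4 lower, 2876 and 2947 of all genes, and 6 and 2 of the pathway list. Psmd5 was called higher in that fit (log2 fold change 0.32, edgeR adjusted p = 0.0213). Leaving out each mouse moved the difference in the share of Psmb8, 0.244 percentage points, to 0.0472 (without knockout mouse 4) to 0.365, that of Psmb10 to 0.526 to 0.832, and that of Psma8 to -0.00423 to 0.0584, reversed without knockout mouse 4. The activators' log2 ratio, 0.02 from summed CPM, was -0.12 as the difference of medians of log2(CPM + 1). The share of Psmb9 was not run. The alternative core subunits rest on few counts, and leaving out mice leaves fewer samples to test.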
